A study of Mus musculus with 16 samples.

Results

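The nuclear receptors for retinoic acid were examined in cultured mouse pluripotent cells. The set was chosen by name and comprised 6 genes of 34042 in the count table, the 3 retinoic acid receptors Rara, Rarb and Rarg and the 3 retinoid X receptors Rxra, Rxrb and Rxrg. Bulk RNA sequencing gave 16 libraries in 4 groups, each a passage of a line. Formative stem cells (FS), which stand for the epiblast between the naive and the primed state, were grown in A3XR medium and gave 6 libraries, 3 of the line 5ar1 and 3 of the line 5ar3. The naive state was represented by embryonic stem cells (ES), with 4 libraries of E14IV-C cells grown in 2iL medium. The primed state was represented by epiblast stem cells, with 3 libraries from AFX6 cells kept in AFX medium (group EpiSC_AFX) and 3 libraries from AF32 cells kept in AF medium (group EpiSC_AF). The labels give no genotype or strain for any line. AF medium holds activin and FGF, AFX medium adds the Wnt pathway blocker XAV939, and 2iL holds a pair of kinase inhibitors with the cytokine LIF. A3XR medium holds a low dose of activin, XAV939 and BMS493, an inverse agonist of the retinoic acid receptors. The receptor blocker was therefore in the medium of the FS libraries alone, and its effect cannot be told apart from that of the rest of the medium or of the lines. Outside FS each medium was represented by 1 line, and p-values measure the spread between passages, not between independent derivations.

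Retinoic acid is made from vitamin A inside cells and acts through pairs of nuclear receptors, in each of which a retinoic acid receptor (RAR) binds DNA together with a retinoid X receptor (RXR). Without ligand the pair holds corepressors at its target genes, and ligand exchanges them for coactivators. An inverse agonist such as BMS493 favours the corepressor-bound form. In pluripotent cells retinoic acid is known as a strong inducer of differentiation, and Rarb and the degrading enzyme gene Cyp26a1 are textbook direct targets. RXRs also pair with other receptors, among them the thyroid hormone receptor, the liver X receptors and the PPARs.

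Total counts ranged from 22069338 to 33290250 per library. ES replicate 1 stood apart, with 43.2% of its counts in the 35 mitochondrial genes against 22.02% to 23.2% in the other ES libraries. Levels are given as counts-per-million values (CPM), with library sizes corrected for differences in composition by the TMM method. Marker genes were checked against the labels. The summed level of 7 naive markers was 2272 to 3531 CPM in ES and 4.71 to 12.53 CPM in FS, with Zfp42 at no more than 3 counts in every FS and EpiSC_AFX library. The 5 formative markers summed to 840 to 2254 CPM in FS and 39.7 to 103 CPM in ES. Their sum was 1006 to 1199 CPM in EpiSC_AFX and 949 to 1282 CPM in EpiSC_AF, within the FS range. This sum therefore set ES apart but did not separate FS from the EpiSC groups. Alone, Sox3 was at 5.89 to 14.6 CPM in FS, above EpiSC_AFX at 3.07 to 5.32 and EpiSC_AF at 3.14 to 4.35. Otx2 was at 133 to 215 CPM in FS, above EpiSC_AFX at 96.4 to 117, and overlapped EpiSC_AF. Dnmt3b, Pou3f1 and Fgf5 in FS overlapped both EpiSC groups. The 8 markers of primitive streak and endoderm summed to 392 to 994 CPM in EpiSC_AF and 16.6 to 56.9 CPM in FS.

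The receptor genes are spread over 6 chromosomes of the mouse assembly GRCm38. Rara (ENSMUSG00000037992) lies on the forward strand at chr11:98927818-98974942, Rarb (ENSMUSG00000017491) on the reverse strand at chr14:16430839-16819156 and Rarg (ENSMUSG00000001288) on the reverse strand at chr15:102234938-102257517. Rxra (ENSMUSG00000015846) lies on the forward strand at chr2:27676440-27762957, Rxrb (ENSMUSG00000039656) on the forward strand at chr17:34031812-34038399 and Rxrg (ENSMUSG00000015843) on the forward strand at chr1:167598384-167639623. In the annotation, 1793 of the 5265 exonic bases of Rarb are also exonic in Top2b on the opposite strand. The library kit keeps strand, but the strand setting of the counting was not given in the sources used here, so the Rarb counts are uncertain. Top2b, a DNA topoisomerase, was at 61.4 to 74.1 CPM in ES and at 206 to 255 CPM in the 12 other libraries, a range within which it did not separate FS, EpiSC_AFX and EpiSC_AF.

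Receptor pairs bind direct repeats of a 6-base unit, and the spacing of the units marks the classical response elements. The promoter windows of RefSeq (GRCm38.p6, 250 bases before to 50 after a start) were searched on both strands for a pair of units in direct repeat, each unit being AGGTCA or the variant AGTTCA or the variant GGGTCA or the variant GGTTCA, with 5, 2 or 1 bases between them. A spacing of 5 occurred in 0.0974% of 32851 windows, a spacing of 2 in 0.268% and a spacing of 1 in 0.222%. All 6 receptor genes had a window, 13 in total, and Rarb was the single member with a match, a repeat spaced by 5. Among the 9 genes of the target list that had a window, 2 held this repeat, Rarb and Cyp26a1. These stretches are shown because Rarb and Cyp26a1 were the receptor gene and the target gene whose levels are set side by side further on. Both are read in the direction of the repeat, on the reverse strand, with the repeat in capitals and 15 flanking bases on each side. In Rarb the repeat begins 53 bases before the start, at chr14:16575513-16575529, and in Cyp26a1 it lies 32 bases before the start, at chr19:37697776-37697792, on the strand opposite to the gene. Rarb had 1 window, and its start lies inside the annotated span of the gene, whose outer end at chr14:16819156 had no window. The counts do not tell which start was used. The last sequence gives the 250 bases before the Rarb start of that window, chr14:16575477-16575726 on the reverse strand, with the same repeat in capitals.
Rarb: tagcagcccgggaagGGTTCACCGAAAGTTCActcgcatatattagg
Cyp26a1: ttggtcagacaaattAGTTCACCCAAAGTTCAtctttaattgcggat
Rarb upstream: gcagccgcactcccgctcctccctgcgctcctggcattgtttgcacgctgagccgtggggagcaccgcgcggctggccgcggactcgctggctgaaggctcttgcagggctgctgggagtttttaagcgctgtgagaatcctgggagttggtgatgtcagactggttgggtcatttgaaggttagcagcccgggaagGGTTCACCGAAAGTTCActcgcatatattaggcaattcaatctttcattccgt

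Levels were first compared between the naive and the other cells. Of the 6 receptor genes, 4 passed the test between FS and ES, where 62.8% of the 18555 genes tested did (edgeR quasi-likelihood test, Benjamini-Hochberg adjusted p under 0.05). Rara was lower in FS, and Rarg, Rxra and Rxrg were higher. Between EpiSC_AFX and ES 3 members passed (54.7% of all genes), with Rara lower and Rarg and Rxrg higher. Between EpiSC_AF and ES 5 passed (56.7% of all genes), with Rara lower and Rarb, Rarg, Rxra and Rxrg higher. These 3 comparisons share the ES libraries. With 6 genes, these counts do not set the receptors apart from the share called among all genes.

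**Figure D1:**
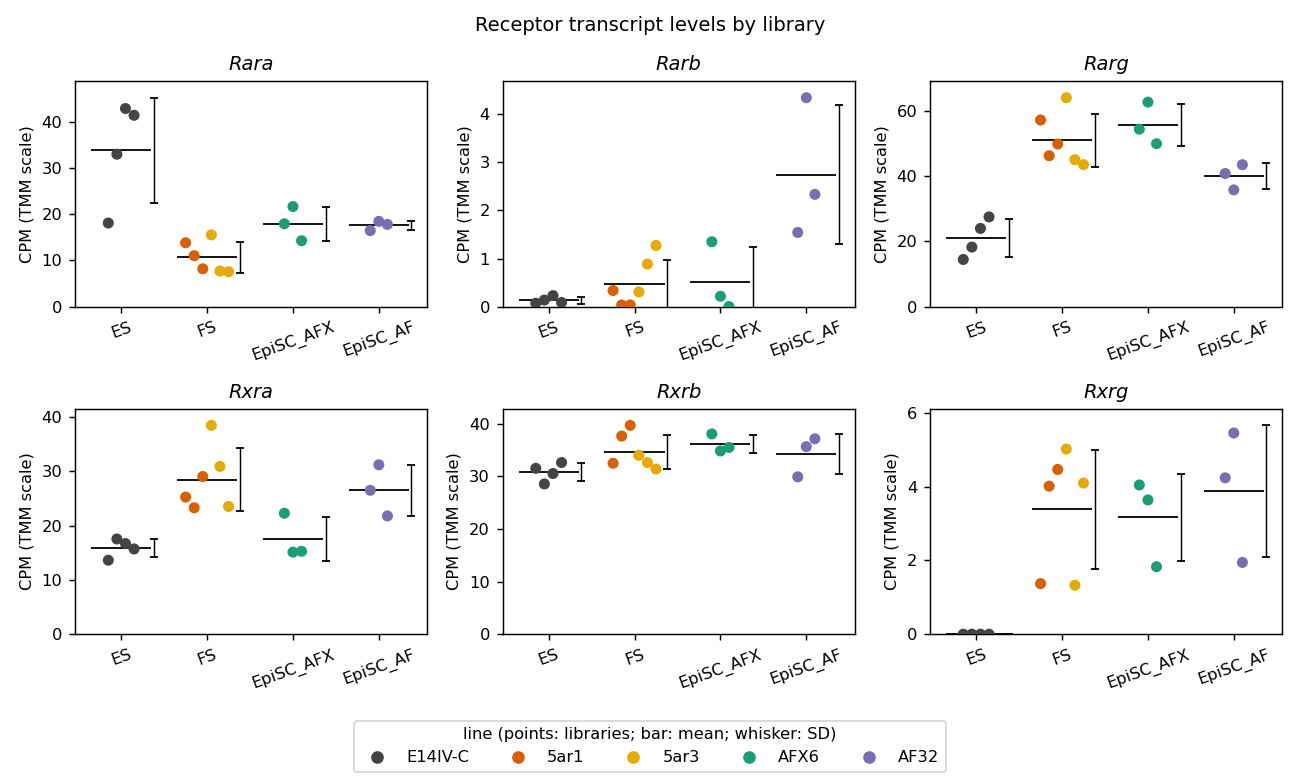
Level of each receptor gene in CPM on the TMM scale (linear axes from 0), with 1 point per library coloured by line, a bar at the group mean and a whisker of 1 SD. Rara is highest in ES replicates 2 to 4, at 33.01 to 42.9 CPM, Rxrg is at 0 in the 4 ES libraries, and Rarb is highest in EpiSC_AF at 1.54 to 4.35 CPM.

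Rara encodes the RAR that is expressed most widely in adult and embryonic tissue. Its level in ES was 18.1, 33.01, 42.9 and 41.5 CPM in replicates 1 to 4, the lowest in the library with the high mitochondrial share. It was 17.9, 21.7 and 14.3 CPM in EpiSC_AFX and 16.5, 18.5 and 17.8 CPM in EpiSC_AF. In FS the lowest, median and highest values were 7.54, 9.61 and 15.5 CPM. All FS libraries therefore lay below all ES libraries and below all EpiSC_AF libraries, and they overlapped EpiSC_AFX. The log2 fold change of FS against ES was -1.67 (SE 0.24, adjusted p = 1.18e-05 by edgeR), which is a level 3.19-fold lower. Against ES it was -0.92 in EpiSC_AFX (SE 0.29, adjusted p = 0.0141 by edgeR) and -0.95 in EpiSC_AF (SE 0.29, adjusted p = 0.0111 by edgeR). Without ES replicate 1 the FS value was -1.88. With libraries scaled by total counts alone the EpiSC values were -0.72 (adjusted p = 0.125 by edgeR) and -0.73 (adjusted p = 0.115), so these 2 calls ended.

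The FS level of Rara was also below that of both EpiSC groups in the fitted means, but these differences missed the threshold. The log2 fold change was -0.75 against EpiSC_AFX (95% interval -1.31 to -0.20, adjusted p = 0.114 by edgeR) and -0.72 against EpiSC_AF (95% interval -1.28 to -0.17, adjusted p = 0.0700 by edgeR). Rara lies on chromosome 11, whose genes as a body were lower in FS than in EpiSC_AF, with a median log2 fold change of -0.39 against 0.06 on the other chromosomes. The part of this in the Rara value was not tested. Between FS and EpiSC_AFX the chromosome 11 median was 0.02. Against ES this median was 0.29 in EpiSC_AF (-0.0051 on the other chromosomes) and -0.10 in FS (0.05 on the other chromosomes). Its part in the Rara values against ES was not tested either.

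Rarg, the RAR with a prominent role in ES cells and early embryos, moved in the opposite direction. It was at 14.4, 18.2, 24.0 and 27.5 CPM in ES, at 54.4, 62.7 and 49.96 CPM in EpiSC_AFX and at 40.8, 35.8 and 43.5 CPM in EpiSC_AF. In FS the lowest, median and highest values were 43.5, 48.1 and 64.1 CPM. Every library outside ES exceeded every ES library. The log2 fold change against ES was 1.27 in FS (SE 0.17, adjusted p = 5.19e-06 by edgeR), 1.40 in EpiSC_AFX (SE 0.19, adjusted p = 9.90e-06) and 0.93 in EpiSC_AF (SE 0.19, adjusted p = 5.81e-04). FS and EpiSC_AFX, the neighbours at the top of the order, differed by -0.13 on the log2 scale (95% interval -0.50 to 0.25). FS and EpiSC_AF differed by 0.35 (95% interval -0.03 to 0.73, adjusted p = 0.212 by edgeR).

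The opposite movements of Rara and Rarg changed the make-up of the RAR transcripts. This was measured as a share of the summed CPM per kilobase of exon, since levels of different genes compare only per length. In ES Rara made up 60.4% ± 4.1 (SD, n = 4) of the RAR sum and Rarg 39.4% ± 4.2. In FS Rarg made up 82.8% ± 2.4 (SD, n = 6) and Rara 16.5% ± 2.7. Rarg made up 75.8% ± 2.1 in EpiSC_AFX and 67.3% ± 4.3 in EpiSC_AF (SD, n = 3 each). The sum itself was 12.7 ± 3.9 CPM per kilobase in ES, 14.5 ± 2.6 in FS, 17.3 ± 2.4 in EpiSC_AFX and 13.9 ± 0.69 in EpiSC_AF. The EpiSC_AFX libraries, at 14.99 to 19.7, lay above the EpiSC_AF libraries, at 13.5 to 14.7, and the other pairs of groups overlapped.

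**Figure D2:**
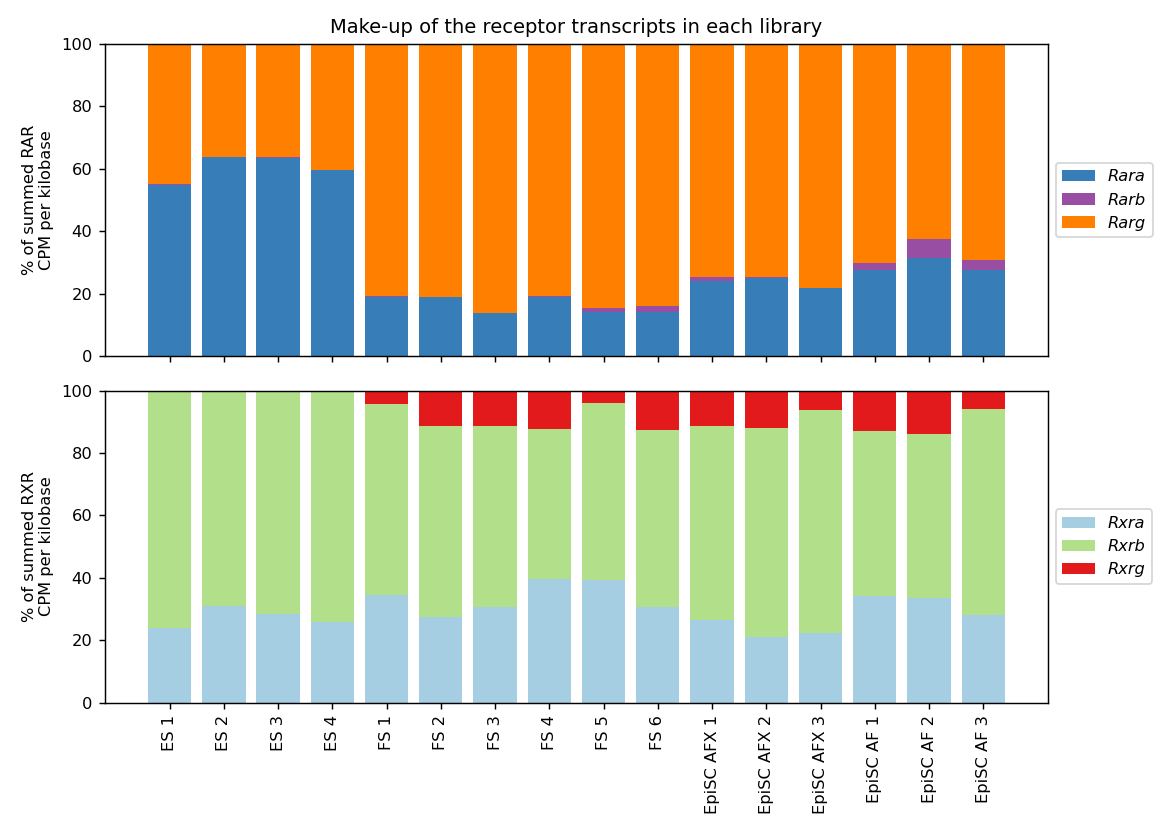
Share of each gene in the summed CPM per kilobase of the RAR genes (upper bars) and of the RXR genes (lower bars), 1 bar per library on axes from 0 to 100%. Rara holds 54.9% to 63.7% of the RAR sum in ES and 13.8% to 19.1% in FS, and Rxrg is absent from the ES bars.

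The ratio of Rarg to Rara counts within a library, which does not depend on how libraries are scaled, put the 4 groups in an order without overlap. It was 0.798, 0.553, 0.559 and 0.664 in ES, 2.48, 1.94 and 2.44 in EpiSC_AF and 3.03, 2.89 and 3.498 in EpiSC_AFX. In FS it ran from 4.12 to 6.08, with 5ar1 at 4.14, 4.19 and 6.08 and 5ar3 at 4.12, 5.84 and 5.76. The geometric means were 0.636 in ES, 2.27 in EpiSC_AF, 3.13 in EpiSC_AFX and 4.94 in FS. The log2 ratio was higher in FS than in ES by 2.96 (two-sided exact permutation p = 0.00476, adjusted p = 0.0417 over 14 ratio tests). It was higher in FS than in EpiSC_AF by 1.12 (exact permutation p = 0.0119, adjusted p = 0.0417), and higher in 6 of 6 FS libraries. Rara is the denominator and lies on chromosome 11, whose genes had a median log2 fold change of -0.39 between FS and EpiSC_AF against 0.06 on the other chromosomes, with 31.2% of them called lower. Between EpiSC_AFX and EpiSC_AF the chromosome 11 median was -0.42, and between EpiSC_AF and ES it was 0.29. The part of this in the ratio was not tested. The difference of FS from EpiSC_AFX was 0.66, and its adjusted p missed the threshold (exact permutation p = 0.0238, adjusted p = 0.0571).

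The differences from ES were 2.30 in EpiSC_AFX and 1.84 in EpiSC_AF, each with the smallest p that 3 against 4 libraries allow in a two-sided exact permutation test (p = 0.0286, adjusted p = 0.0571). EpiSC_AFX and EpiSC_AF differed by 0.46, at the smallest p that 3 against 3 allow (exact permutation p = 0.1, adjusted p = 0.14). The FS lines differed by -0.13 (exact permutation p = 1). With 1 library left out, the FS differences kept their sign. The call against ES ended in 8 of 10 cases, with adjusted exact permutation p from 0.0417 to 0.0625, and held without ES replicate 2 or 3. The call against EpiSC_AF ended in 9 of 9 cases, with adjusted exact permutation p from 0.05 to 0.0833. In these cases the difference from EpiSC_AF was 1.01 to 1.18. With fewer libraries the smallest p that the test allows is larger, so an ended call does not by itself show a smaller difference.

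Rarb, the RAR whose gene is itself switched on by retinoic acid, was the scarcest member of its family and the most variable. In ES it had 1, 3, 5 and 2 counts, which is 0.0691 to 0.228 CPM. In EpiSC_AF it had 48, 133 and 66 counts, or 1.54, 4.35 and 2.34 CPM, above every other library of the series. In EpiSC_AFX it had 40, 6 and 0 counts, or 1.35, 0.214 and 0 CPM. In FS the 5ar1 libraries gave 9, 1 and 1 counts and the 5ar3 libraries 8, 24 and 27, which is 0.0319 to 1.27 CPM. EpiSC_AF exceeded ES by a log2 fold change of 4.32 (SE 1.12, adjusted p = 0.00327 by edgeR). Rarb lies on chromosome 14, whose genes had a median of 0.29 in this comparison, against 0.0058 on the other chromosomes. The part of this in the Rarb value was not tested.

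Rarb was also the 1 member that passed the test between FS and EpiSC_AF, where 16.6% of all genes did. Its log2 fold change was -2.56 (SE 0.84, adjusted p = 0.0466 by edgeR), which is a level 5.89-fold lower in FS, and 6 of 6 FS libraries lay below the 3 EpiSC_AF libraries. This call ended in 17 of 26 alternative settings, including the DESeq2 Wald test (adjusted p = 0.0517) and the fit without EpiSC_AF replicate 2 (adjusted p = 0.208), while the direction held in each. With 5ar1 as the only FS line the value was -4.37 (adjusted p = 0.00971 by edgeR), and with 5ar3 it was -1.75 (adjusted p = 0.163). The direct comparison of 5ar1 with 5ar3 gave -2.62 (95% interval -4.84 to -0.40, unadjusted p = 0.0234, adjusted p = 0.197 by edgeR). The remaining Rarb differences did not pass. FS and EpiSC_AFX differed by -0.18 with a 95% interval of -2.15 to 1.79, and without EpiSC_AFX replicate 1 the sign turned to 2.08.

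Cyp26a1, the enzyme that clears retinoic acid and the other gene with the repeat spaced by 5, had a library order close to that of Rarb. It was at 36.6, 98.8 and 45.0 CPM in EpiSC_AF and at 30.1, 1.29 and 0.271 CPM in EpiSC_AFX. In 5ar1 it was at 0.0741, 0 and 0.0339 CPM, in 5ar3 at 0.685, 6.93 and 8.57 CPM, and in ES at 0, 0.0452, 0 and 0 CPM. In both EpiSC groups the libraries fall in the same order for Rarb and Cyp26a1, and in FS the replicates 5 and 6 are highest for both. Cyp26a1 was lower in FS than in EpiSC_AF by a log2 fold change of -4.50 (adjusted p = 0.0207 by edgeR).

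Markers of primitive streak and endoderm followed the order of both genes in the EpiSC groups but not in FS. The summed level of the 8 markers (T, Mixl1, Eomes, Foxa2, Sox17, Cer1, Gsc and Lhx1) was 392, 994 and 525.9 CPM in EpiSC_AF and 183, 24.2 and 15.9 CPM in EpiSC_AFX, the library order of Rarb in each group. It was 15.2 to 19.1 CPM in ES, where Cer1 and Lhx1 had at most 3 counts in every library. In FS it was 16.6, 27.7 and 43.3 CPM in 5ar1 and 56.9, 38.9 and 47.1 CPM in 5ar3, highest in replicate 4, while Rarb and Cyp26a1 were highest in replicates 5 and 6. The 5 markers of primitive endoderm summed to 24.3, 65.1 and 42.3 CPM in EpiSC_AF and to 3.11 to 17.3 CPM in FS. The 4 neuroectoderm markers (Sox1, Pax6, Six3 and Zic1) separated the FS lines, with sums of 2.56, 2.36 and 2.71 CPM in 5ar1 and 32.5, 44.4 and 38.5 CPM in 5ar3. Their sum was 4.49 to 13.8 CPM in EpiSC_AF, 0.373 to 2.80 CPM in EpiSC_AFX and 0.813 to 2.72 CPM in ES, where Six3 and Zic1 had at most 3 counts in every library. The part of cells of these types in the Rarb and Cyp26a1 levels was not tested. In bulk RNA, fewer cells that express a gene and less RNA per cell cannot be told apart.

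**Figure D3:**
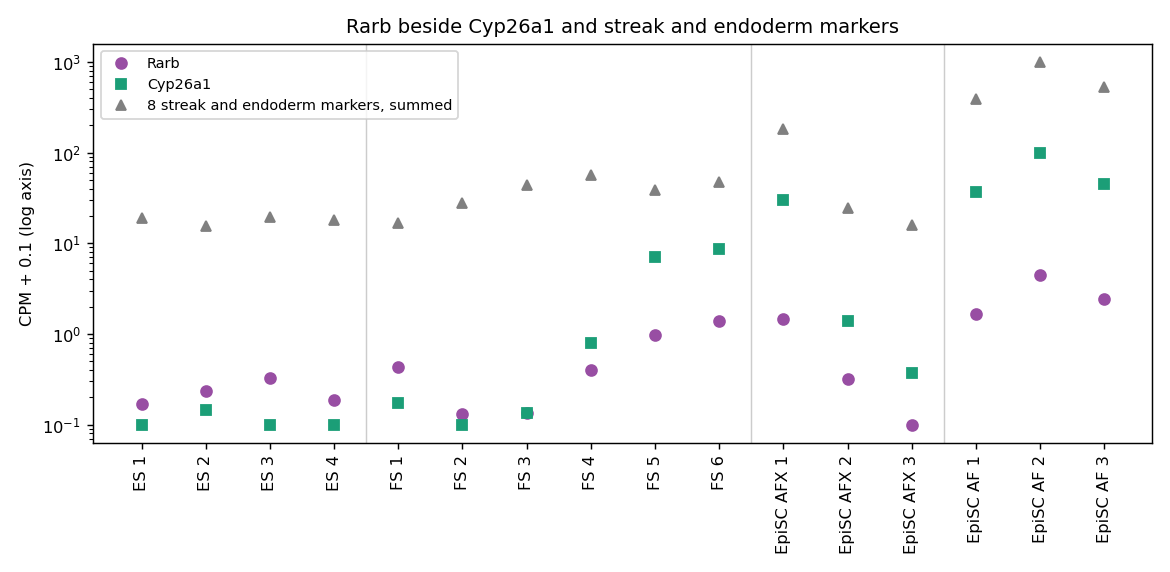
Level of Rarb, of Cyp26a1 and of the 8 summed streak and endoderm markers in each library, as CPM plus 0.1 on a log axis, with vertical lines between the groups. In EpiSC_AF replicate 2 all 3 quantities reach their highest value, at 4.35, 98.8 and 994 CPM, and in EpiSC_AFX replicate 1 is the highest library for all 3.

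Among the RXRs, Rxrb was the steadiest gene. It was at 31.5, 28.5, 30.5 and 32.6 CPM in ES, at 38.05, 34.8 and 35.5 CPM in EpiSC_AFX, at 29.9, 35.6 and 37.1 CPM in EpiSC_AF and between 31.4 and 39.7 CPM in FS, with a median of 33.3. It passed in none of the 7 comparisons by edgeR or by the DESeq2 Wald test, and 0 of the 7 had an unadjusted edgeR p under 0.05. The log2 fold change of FS against ES was 0.17 (95% interval -0.06 to 0.39, adjusted p = 0.176 by edgeR). Total-count scaling moved the median of all genes between FS and ES from 0.04 to 0.40, and there Rxrb was called at 0.53 (adjusted p = 0.00824 by edgeR).

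Rxra, the RXR required for embryonic heart development, was higher in FS than in ES and EpiSC_AFX. Its values were 13.6, 17.5, 16.7 and 15.7 CPM in ES, 22.3, 15.1 and 15.3 CPM in EpiSC_AFX, and 26.5, 31.2 and 21.8 CPM in EpiSC_AF. In FS the lowest, median and highest values were 23.3, 27.1 and 38.4 CPM, above every ES and every EpiSC_AFX library. The log2 fold change against ES was 0.84 in FS (SE 0.17, adjusted p = 4.18e-04 by edgeR) and 0.74 in EpiSC_AF (SE 0.20, adjusted p = 0.00418). In EpiSC_AFX it was 0.14 (95% interval -0.28 to 0.56, adjusted p = 0.567 by edgeR).

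Rxra was the 1 member that passed between FS and EpiSC_AFX, where 5.00% of all genes did. The log2 fold change was 0.69 (SE 0.19, adjusted p = 0.0413 by edgeR), a level 1.62-fold higher in FS. The call ended in 12 of 27 alternative settings, with the highest adjusted p at 0.228 without EpiSC_AFX replicate 3, and the DESeq2 Wald test gave 0.00757. With 5ar1 alone as FS the adjusted p was 0.127, and with 5ar3 alone it was 0.0232. FS and EpiSC_AF differed by 0.10 (95% interval -0.29 to 0.49).

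The ratio of Rxrb to Rxra counts within a library was lower in FS than in both groups with a low Rxra level. It ranged from 0.884 to 1.62 in FS, from 1.63 to 2.31 in ES, from 1.71 to 2.33 in EpiSC_AFX and from 1.13 to 1.71 in EpiSC_AF. The log2 ratio in FS was lower than in ES by 0.66 (difference -0.66, exact permutation p = 0.00952, adjusted p = 0.0417), and the ranges did not overlap. The difference of FS from EpiSC_AFX was -0.76 (exact permutation p = 0.0119, adjusted p = 0.0417), again without overlap. With 1 library left out, the call against ES held only without ES replicate 2 or 3 (adjusted exact permutation p from 0.0417 to 0.1), and that against EpiSC_AFX ended in 9 of 9 cases (0.05 to 0.143). Here too the smallest p that the test allows is larger with fewer libraries. FS and EpiSC_AF differed by -0.07 (exact permutation p = 0.75).

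Rxrg, the RXR best known from muscle and nervous tissue, had 0 counts in all 4 ES libraries. It was at 4.05, 3.64 and 1.83 CPM in EpiSC_AFX and at 4.24, 5.46 and 1.95 CPM in EpiSC_AF. In FS the lowest, median and highest values were 1.33, 4.06 and 5.02 CPM. A count of 0 allows up to 3 counts, at most 0.207 CPM in an ES library, so the mean was at least 16.3-fold higher in FS, 15.3-fold in EpiSC_AFX and 18.7-fold in EpiSC_AF. Without ES replicate 1, which has the smallest effective library size, these bounds were 24.8-fold, 23.2-fold and 28.4-fold. The adjusted p against ES was 1.44e-06 in FS, 3.80e-06 in EpiSC_AFX and 2.37e-06 in EpiSC_AF by edgeR. The other 3 groups overlapped in Rxrg. The difference of FS was 0.09 from EpiSC_AFX (95% interval -0.91 to 1.10) and -0.20 from EpiSC_AF (95% interval -1.19 to 0.79).

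Per kilobase of exon, Rxrb made up 72.7% ± 3.0 (SD, n = 4) of the RXR sum in ES and Rxra the remaining 27.3% ± 3.0. In FS the shares were 56.9% ± 4.8 for Rxrb, 33.7% ± 4.9 for Rxra and 9.35% ± 4.0 for Rxrg (SD, n = 6). The RXR sum was 10.7 ± 0.32 CPM per kilobase in ES, 15.4 ± 1.8 in FS, 13.7 ± 1.5 in EpiSC_AFX and 15.1 ± 1.6 in EpiSC_AF. Every library outside ES exceeded the 4 ES libraries in this sum.

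**Figure D4:**
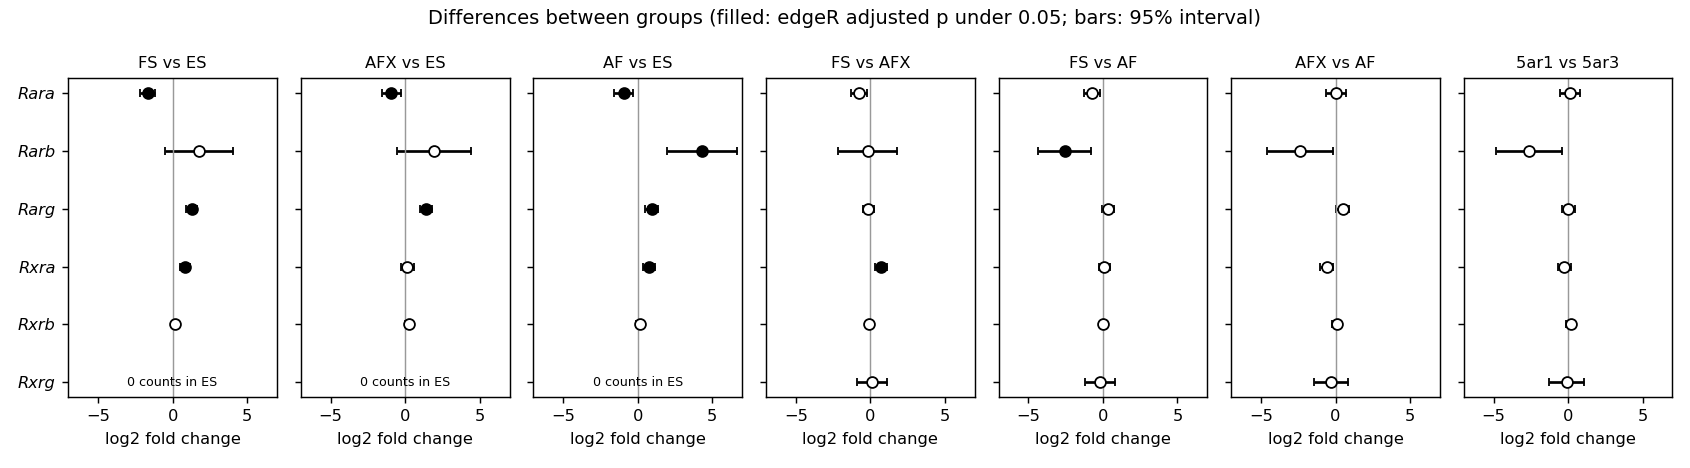
Log2 fold change of each receptor gene in the 7 comparisons (AFX and AF stand for the EpiSC groups), with the 95% interval of edgeR and filled points where the adjusted p is under 0.05. Rxrg has no point against ES, where its counts are 0. Filled points lie mainly in the 3 comparisons with ES, with 1 each for FS against EpiSC_AFX (Rxra) and FS against EpiSC_AF (Rarb).

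The EpiSC groups were compared with each other, and the FS lines likewise. No member passed between EpiSC_AFX and EpiSC_AF, where 4.26% of all genes did, by edgeR or by the DESeq2 Wald test. At an unadjusted p under 0.05 there were 3 members, Rarb at -2.38 on the log2 scale (adjusted p = 0.243 by edgeR), Rarg at 0.48 (adjusted p = 0.237) and Rxra at -0.59 (adjusted p = 0.136). Between 5ar1 and 5ar3 no member passed by either tool, against 3.88% of all genes by edgeR, and 1, Rarb, had an unadjusted p under 0.05. The share of all genes under the unadjusted threshold is not given here for either comparison. These unadjusted counts therefore cannot be set against the 4.26% and 3.88%, which are at the adjusted threshold. The 5ar1 libraries were of passages 10, 12 and 14 and the 5ar3 libraries of passages 12, 4 and 5, so line and passage are partly mixed.

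The supply of the ligand was followed in a list of 11 genes for vitamin A transport, storage and conversion, of which 9 were tested. Between FS and ES 5 were higher and 3 lower, with a median log2 fold change of 1.26 against 0.04 over all genes. Over all genes tested 32.9% were called higher in FS and 29.9% lower. Aldh1a2, which makes retinoic acid in the early embryo, was at 5.32, 2.57, 4.37 and 1.79 CPM in ES and at 4.02, 1.05 and 1.03 CPM in EpiSC_AF. It had at most 3 counts in every FS library, so its mean was at least 24.9-fold higher in ES (adjusted p = 2.74e-07 by edgeR) and at least 14.4-fold higher in EpiSC_AF (adjusted p = 4.05e-05). Without EpiSC_AF replicate 1 the second bound was 7.33-fold. In EpiSC_AFX it was at 0.0675, 0.0357 and 0.203 CPM. Aldh1a3, a related enzyme, was also lower in FS than in ES (log2 fold change -4.06). The retinol dehydrogenase genes Rdh10 and Rdh11 were higher in FS than in ES by 1.34 and 1.82 on the log2 scale. Stra6, the retinol uptake receptor, was at 0.890, 0.765 and 0.508 CPM in 5ar1, at 9.17, 4.05 and 3.53 CPM in 5ar3 and at no more than 3 counts in every ES library. Its FS mean was at least 15.2-fold higher than in ES. This bound was 9.40-fold without FS replicate 4, 23.1-fold without ES replicate 1 and 3.48-fold with 5ar1 as the only FS line.

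Genes that bind or degrade retinoic acid were a list of 6, of which 5 were tested. Between FS and ES 3 were higher and none was lower by edgeR, against 32.9% higher and 29.9% lower over all genes tested. The median was 4.62, or 4.17 over the 4 genes with a fold when folds against a group at the floor are set to their bound. Crabp2, which carries retinoic acid to the receptors, was at 0.622 to 1.28 CPM in ES and at 17.3 to 67.1 CPM in FS (log2 fold change 5.44, SE 0.68, adjusted p = 2.95e-06 by edgeR). Fabp5, another carrier, was higher by 4.62. Against EpiSC_AF, Crabp2 was higher in FS by 2.01, while Cyp26a1 and Cyp26b1 had log2 fold changes of -4.50 and -2.17.

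Partners that read out the state of the receptors were described as 9 genes listed as corepressors and 9 listed as coactivators, all tested. In the corepressor list 2 were higher and 3 lower in FS than in ES (32.9% and 29.9% of all genes tested), with a median of -0.15. Ncor1, a corepressor of nuclear receptors, fell by 0.97 on the log2 scale. Between FS and EpiSC_AF 2 were higher and 2 lower, where 7.84% of all genes tested were higher and 8.81% lower. Ncor1 was at 350, 364 and 506 CPM in EpiSC_AF and at 141 to 209 CPM in FS (log2 fold change -1.27, adjusted p = 1.54e-04 by edgeR). Ncor1 lies on chromosome 11, as Rara does, and the chromosome median given for that comparison applies to it too.

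In the coactivator list 1 was higher and 5 were lower in FS than in ES (32.9% and 29.9% of all genes tested), with a median of -0.31. Ncoa3 was at 137, 241, 236 and 214 CPM in ES and at 37.8 to 56.0 CPM in FS (log2 fold change -2.23, SE 0.15, adjusted p = 1.03e-09 by edgeR). The acetyltransferase gene Kat2b had a log2 fold change of -2.67 and Ncoa1 one of -0.87. Against EpiSC_AF 2 were lower in FS, Med1 at -0.75 and Nrip1 at -1.48, and none was higher. Over all genes tested 7.84% were higher and 8.81% lower in that comparison, and on chromosome 11 31.2% were lower. The chromosomes of Med1 and Nrip1 are not given here, and the part of such a shift in their values was not tested. Nrip1 is counted in this list and among its lower genes in both comparisons, although its product is known as a ligand-dependent corepressor.

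RXR pairs with other receptors, and 8 of the 13 genes listed for these were tested. Between FS and ES 3 were higher and 4 lower (32.9% and 29.9% of all genes tested), with a median of -0.65. Thra, a thyroid hormone receptor, was higher by 1.18 on the log2 scale, and Nr1h2, a liver X receptor, had a log2 fold change of -0.95. Pparg had at most 3 counts in every library of each group. Of 9 orphan receptor genes 3 were higher and 4 lower in FS than in ES, against the same shares of all genes. Nr6a1, a germ cell and early embryo factor that binds direct repeats, was at 35.3 to 38.9 CPM in ES and at 168 to 335 CPM in FS (log2 fold change 2.72, SE 0.17, adjusted p = 4.36e-10 by edgeR). It was also higher in FS than in EpiSC_AF by 0.60. Nr5a2 and Esrrb, both naive pluripotency factors, were lower in FS than in ES with log2 fold changes of -8.78 and -9.14.

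Textbook targets of retinoic acid were a list of 13 genes, which shares some with the lists above and includes Rarb, of which 12 were tested. Between FS and ES 3 were higher and 6 lower (32.9% and 29.9% of all genes tested), with a median of -0.91. Cdx1 and Stra8 had at most 3 counts in every FS library and were at least 138-fold and at least 32.1-fold lower there. Meis2, a homeobox gene, had a log2 fold change of -3.55. The higher genes were Crabp2, Stra6 and Cyp26a1 (adjusted p = 0.0297 by edgeR). Of the FS lines only 5ar3 had Cyp26a1 above the ES level, at 18, 188 and 182 counts, since the 5ar1 libraries had 2, 0 and 1 counts and the ES libraries 0 or 1. Between FS and EpiSC_AF 1 was higher, Crabp2, and 6 were lower, where 7.84% of all genes tested were higher and 8.81% lower. The median was -1.45, or -1.68 over the 10 genes with a fold when bounds are used. Rarb, Cyp26a1, Meis2, Tgm2 and Nrip1 were among the lower genes. Without EpiSC_AF replicate 2 this list held 2 called genes in place of 7. Between 5ar1 and 5ar3 2 targets were lower in 5ar1, Meis1 with a log2 fold change of -3.36 and Stra6 with -2.95, where 2.02% of all genes tested were lower. The neuroectoderm markers split the lines in the same direction, and their part in these values was not tested.

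Against EpiSC_AFX none of the 7 lists held a called gene in FS by edgeR, where 5.00% of all genes tested were called. Of the 56 genes tested in them, counted once each, 14 had an unadjusted p under 0.05. The share of all genes under that unadjusted threshold is not given here. The DESeq2 Wald test called 0 to 2 genes per list. The target list had a median of -0.61, or -0.38 with bounds, against 0.04 over all genes.

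**Figure D5:**
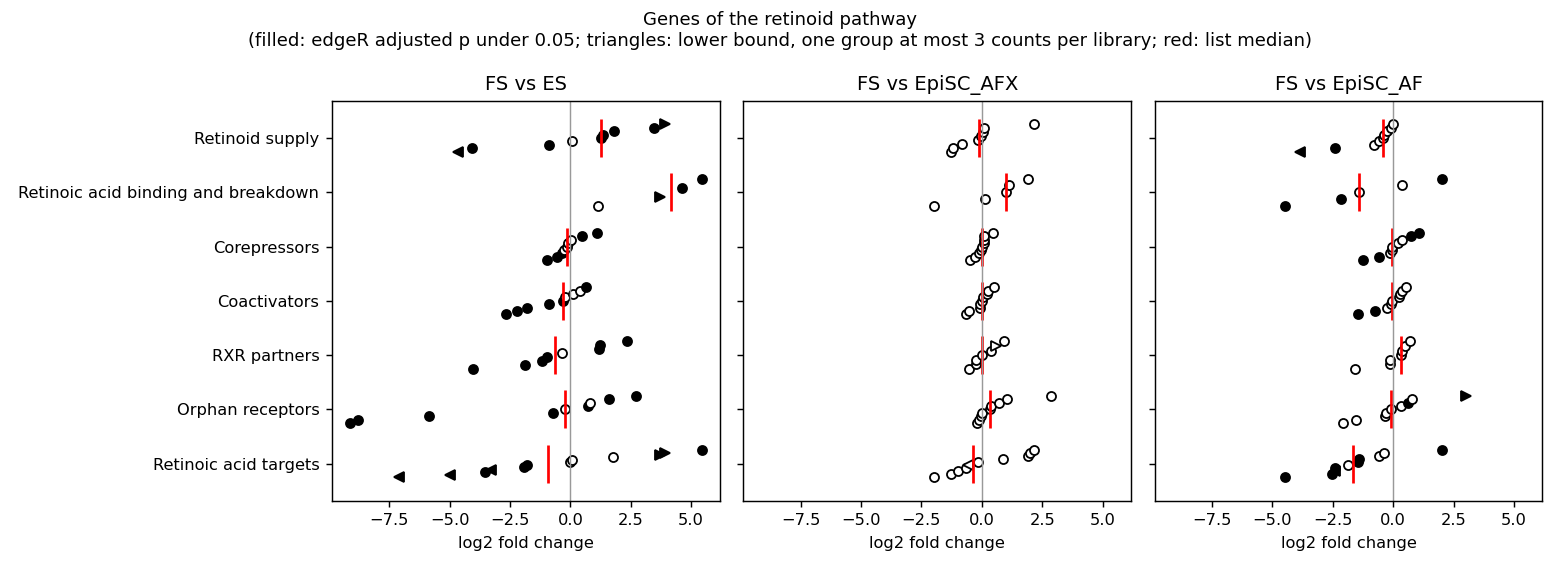
Log2 fold change of each tested gene of the 7 pathway lists for FS against ES, EpiSC_AFX and EpiSC_AF, 1 symbol per gene, filled where the edgeR adjusted p is under 0.05. Triangles are lower bounds where 1 group had at most 3 counts in every library, and red lines are list medians over the symbols drawn. Symbols are open throughout for FS against EpiSC_AFX, and 6 of the targets are filled on the lower side for FS against EpiSC_AF.

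The genes whose pattern over the 16 libraries was most like that of a receptor were found by the root mean square difference of centred log2 CPM. This was done for the 4 members whose group means span at least 1 on the log2 scale. Rarg lay closest to its neighbours, with Sox12 at 0.15, Marveld1 at 0.19 and Cacfd1 at 0.21 among 14804 genes compared. Rara was nearest to Glis2 at 0.27, Nfic at 0.28 and Gm340 at 0.31. Rxrg was nearest to Btbd17 at 0.53, Aif1l at 0.54 and Lin28b at 0.58. Rarb was nearest to Rab37 at 0.64, Kif27 at 0.71 and Akap6 at 0.73. With the 5 line means in place of the libraries, 3 of these 12 genes were named again, Rab37, Sox12 and Marveld1.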

How the data were processed

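Total RNA of 16 cultures was sequenced after a directional library preparation, per the labels' protocols. The authors' deposited table holds raw counts per gene. Per the submitters' processing notes, Trim Galore, TopHat2 2.1.0 and featureCounts 1.5.0 were used with mm10. The strand setting and annotation release were not given in the sources used here. Of the columns, 6 matched no sample and were not used. Positions and exon lengths came from GENCODE release 21 on GRCm38.

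Samples were grouped by culture condition. One model over all 16 libraries was fitted to the counts in edgeR 4.0.16 (R 4.3.3), with the settings filterByExpr, TMM and a robust quasi-likelihood fit with a mean per group, or per line for 5ar1 against 5ar3. This tested 18555 genes at a Benjamini-Hochberg adjusted p under 0.05. Samples are numbered in accession order, so equal numbers pair no samples. Ratio tests used counts plus 0.5 and two-sided exact permutation, adjusted over 14 tests. Where no library of a group exceeded 3 counts for a gene, the group counted as at the floor, and a fold against such a group is given as a lower bound, covering counting error only. No 2 libraries of a line agreed within sampling noise (lowest chi-square per degree of freedom 8.40). The fit was tested on simulated counts with the same spread for every gene and changes in FS only. Differences between lines or passages were not simulated. Values of some pathway genes are not reported here.

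The receptor genes were named in every comparison, pathway genes were eligible, and nearest genes were the 3 with the smallest difference among those with a mean of at least 1 CPM. Members and lists were chosen with earlier results of these data known. Alternatives were DESeq2 1.42.0 size factors and Wald test, total counts, no filter, a mean of at least 1 CPM, only the groups compared, a mean per line, single FS lines, passage as a covariate, no mitochondrial genes, counts plus 5 for the ratios, line means for the nearest genes, and leaving out each library. Bounds were recomputed by library and by FS line, an alternative chosen after seeing the data.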

Additional observations from a re-analysis of the deposited data

How the results depend on the processing

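Of 1052 receptor fold changes recomputed under the alternatives, 46 changed sign, and none of these belonged to a called difference. All calls of Rara, Rarg, Rxra and Rxrg between FS and ES held in 27 of 27 settings. The number of receptor genes called between FS and EpiSC_AFX was 0 with total counts, no filter, only the groups compared and 5ar1 alone. Between FS and EpiSC_AF it was 0 with total counts, no filter, a mean of at least 1 CPM (which removes Rarb), DESeq2's Wald test, 5ar3 alone and passage as a covariate. Between EpiSC_AFX and EpiSC_AF it was 1 with only the groups compared. With 1 library left out each of these 3 counts ranged from 0 to 1. With passage as a covariate Rara between EpiSC_AFX and ES had an adjusted p of 0.256 (edgeR). Between 5ar1 and 5ar3, Rarg was -0.0057 with DESeq2 size factors and with its Wald test, -0.014 with a mean of at least 1 CPM, -0.0026 without mitochondrial genes and -0.21 with passage, where Rara was -0.12. Rxrb between FS and EpiSC_AFX was 0.064 with total counts and 0.011 with 5ar1. Rxrb between FS and EpiSC_AF was -0.0024 without a filter and -0.063 with 5ar3. With 5ar1 as FS, Rarb against ES was -0.055 and Rxra against EpiSC_AF -0.044. With 5ar3, Rarb against EpiSC_AFX was 0.63. With passage, Rxrg was -0.027 for FS against EpiSC_AFX, 0.058 for FS against EpiSC_AF and 0.085 for EpiSC_AFX against EpiSC_AF. With 1 library left out, these differences crossed 0: Rarb (-0.32 to 2.52) and Rxra (-0.067 to 0.24) for EpiSC_AFX against ES, Rarb (-0.76 to 2.08) and Rxrg (-0.19 to 0.30) for FS against EpiSC_AFX, Rxra (-0.022 to 0.23), Rxrb (-0.070 to 0.081) and Rxrg (-0.52 to 0.13) for FS against EpiSC_AF, Rara (-0.12 to 0.17), Rxrb (-0.0088 to 0.14) and Rxrg (-0.61 to 0.034) for EpiSC_AFX against EpiSC_AF, and Rara (-0.11 to 0.52), Rarg (-0.11 to 0.19) and Rxrg (-0.47 to 0.28) for the FS lines. The cause was not tested.

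The called log2 ratios kept their sign under every alternative run. With 1 FS line none was called, and none could be. The smallest exact permutation p is then 0.0286 for 3 against 4 libraries and 0.1 for 3 against 3. After adjustment neither can fall under 0.05. With 1 library left out, the calls of both ratios between FS and ES ended in 8 of 10 cases each, and the calls against an EpiSC group in 9 of 9. Leaving out a library also raises the smallest p that the test allows. Rarg to Rara was 2.89 with 5ar1 and 3.02 with 5ar3 for FS against ES, and 1.06 and 1.19 against EpiSC_AF. Rxrb to Rxra was -0.46 and -0.85 against ES, and -0.56 and -0.96 against EpiSC_AFX. Against EpiSC_AF it was 0.12 with 5ar1. With 1 library left out, Rarg to Rara ranged from 2.89 to 3.07 against ES and from 1.01 to 1.18 against EpiSC_AF. Rxrb to Rxra ranged from -0.74 to -0.56 against ES, from -0.91 to -0.66 against EpiSC_AFX and from -0.18 to 0.12 against EpiSC_AF. Over the alternatives, pathway genes called between FS and EpiSC_AF ranged from 2 to 9 for targets, 1 to 5 for corepressors, 1 to 4 for orphan receptors, 1 to 3 for binding and breakdown, 2 to 3 for supply and for coactivators, and 0 to 1 for RXR partners. Between FS and EpiSC_AFX they reached at most 3, for targets, and the RXR partners called between FS and ES ranged from 4 to 10. Depth limits Rarb, whose counts were 0 to 133 per library. No paired analysis was possible because the groups are of different lines and the labels pair no samples between them.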
